A study of Capra hircus with 6 samples.

Results

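The data describe a set of immediate-early genes in the ovaries of 2 goat breeds (Capra hircus). The set was given by name and holds 10 genes: FOS, FOSB, JUN, JUNB, EGR1, EGR2, EGR3, ATF3, IER2 and IER3. Of these, 9 were found among the 17504 genes of the expression tables through their NCBI GeneIDs, and EGR3 was not analysed here. All 9 passed the filter on low values described below. The samples were whole ovaries of 3 Jintang black goats, the breed labelled prolific, and 3 Tibetan goats, the breed labelled non-prolific, all taken in the follicular phase. Each library came from 1 goat. The labels record no treatment, no age, and nothing on how the tissue was collected or, beyond that phase, when. Goats are named here by breed and by the number in their labels.

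Immediate-early genes are switched on within minutes of a stimulus, without new protein synthesis, when kinases activate factors already bound at their promoters, such as SRF, the ternary complex factors and CREB. FOS, FOSB, JUN, JUNB and ATF3 encode basic leucine-zipper proteins that pair with each other into the AP-1 family of DNA-binding dimers. EGR1 and EGR2 encode zinc-finger factors. IER2 encodes a small nuclear regulator, and IER3 a short-lived stress-response protein that does not itself bind DNA, so that the name transcription factor does not cover it. In the ovary, gonadotrophin surges induce FOS, JUN and EGR1 in follicle cells, and handling of tissue before RNA is preserved can induce the same genes.

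The deposited unit is FPKM, which counts fragments per kilobase of a transcript and relative to the mapped fragments of the library. It corrects for length, so that levels of different genes can be set side by side. The sums of FPKM ran from 602255 to 682801 per library, and the number of genes at 1 FPKM or more from 12617 to 13131. Read totals are unknown, but the spacing of low values put the relative depth between 0.926 and 1.027 (Tibetan 1 set to 1). Means are given ± SD with n = 3 goats per breed. Log2 fold changes are the Jintang mean minus the Tibetan mean of log2(FPKM + 1), a scale that makes changes of low genes look smaller. They come from limma fitted to the 13067 genes that reached 1 FPKM in 3 or more libraries. Granulosa markers had a row for 12 of 12 list entries and all 12 were tested. Some were very low in single ovaries: FSHR was listed at 0 in Tibetan 1, and CYP19A1 at 0.27 FPKM in Jintang 1. The share of follicle cells in each ovary was not measured. Jintang 1 and Jintang 2 stood apart from the other ovaries in markers of several cell types, given at the end. Tibetan 2 was deposited under a differently built table name, with no reason given in the sources used here. The granulosa markers summed to 326, 487 and 1374 FPKM in Tibetan 1, 2 and 3 and to 230, 371 and 402 FPKM in Jintang 1 to 3. INHA alone gave 1194 FPKM of the sum in Tibetan 3, where FOXL2 (1.75 FPKM), WT1 (21.9), INHBA (15.6) and GATM (26.0) had their lowest Tibetan values. CYP19A1 (15.6 FPKM) and INHBB (85.8), like INHA, had their highest value of all 6 ovaries in Tibetan 3.

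FOS, EGR1 and JUN had lower means in Jintang ovaries, and IER3 and JUNB had higher ones, but 0 of the 9 genes passed the limma test (adjusted p from 0.743 to 0.926, against 0% of all genes tested). At an unadjusted p under 0.05 there were 4 of 9, with FOS, EGR1 and JUN lower and IER3 higher, beside 6.17% of all genes tested (806 genes). The count was 1 without Tibetan 2 or without Tibetan 3, and 2 without Jintang 2. The set was chosen with earlier results of these data known, so the count is a description. The breeds were fully separated in 1 of 9, JUN, beside 9.90% of all genes tested (3.20% higher and 6.70% lower in Jintang). Whole ovaries were sequenced, so fewer cells of a type and less RNA per cell cannot be told apart.

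FOS, which forms stable AP-1 dimers with JUN proteins, stood at 71.2, 217 and 144 FPKM in Tibetan 1 to 3 and at 64.0, 17.7 and 85.4 FPKM in Jintang 1 to 3. Jintang 2 was far below every other ovary, and Jintang 3 lay above Tibetan 1, so that the breeds overlapped. The means were 144 ± 72.7 and 55.7 ± 34.6 FPKM (log2 fold change -1.48, SE 0.62, 95% interval from -2.91 to -0.05, limma adjusted p = 0.743). Without Jintang 2 the log2 fold change was -0.81, and without Tibetan 2, which held the highest value, -1.12. FOSB, the close relative of FOS, was low throughout. It was at 1.07, 4.24 and 1.16 FPKM in the Tibetan ovaries and at 3.28 and 0.19 FPKM in Jintang 1 and 3, and it was listed at 0 in Jintang 2. Tibetan 2 and Jintang 1 therefore held the 2 highest FOSB values, 1 in each breed.

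JUN, which pairs with FOS or with itself, was at 80.7, 92.3 and 109 FPKM in the Tibetan ovaries and at 62.4, 29.1 and 61.6 FPKM in the Jintang ovaries. Every Jintang ovary lay below every Tibetan ovary, and the lowest was again Jintang 2. Its means were 93.9 ± 14.0 and 51.0 ± 19.0 FPKM (log2 fold change -0.93, SE 0.35, 95% interval from -1.74 to -0.13, limma adjusted p = 0.743). Leaving out Jintang 2 gave -0.58. JUNB, a JUN relative that activates transcription more weakly at many sites, had another order. It was at 92.8, 81.1 and 55.6 FPKM in the Tibetan ovaries and at 206, 100.4 and 63.8 FPKM in the Jintang ovaries, with the highest value in Jintang 1 and wide overlap. Its log2 fold change was 0.55 (SE 0.44, 95% interval from -0.47 to 1.57, limma adjusted p = 0.784), and 0.10 without Jintang 1. ATF3, a stress-induced member that often represses its targets, was at 5.43, 6.02 and 11.6 FPKM in the Tibetan goats and at 34.3, 6.66 and 3.66 FPKM in the Jintang goats. Jintang 1 held 2.95 times the next highest ATF3 value. The ATF3 log2 fold change of 0.38 (SE 0.70, limma adjusted p = 0.902) became -0.47 without Jintang 1.

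EGR1, a zinc-finger activator that gonadotrophins induce, was at 176, 309 and 86.4 FPKM in Tibetan 1 to 3 and at 67.2, 25.0 and 89.6 FPKM in Jintang 1 to 3. Tibetan 1 and Tibetan 2 stood above the other 4 ovaries, and Tibetan 3 lay just under Jintang 3. The means were 190.4 ± 112 and 60.6 ± 32.9 FPKM (log2 fold change -1.63, SE 0.58, 95% interval from -2.98 to -0.29, limma adjusted p = 0.743). EGR2, a relative known from nerve and myeloid cells, was at 0.75, 2.90 and 0.67 FPKM in the Tibetan goats and at 28.8, 0.63 and 2.07 FPKM in the Jintang goats. Jintang 1 held 9.93 times the next highest value, and the other 5 ovaries did not separate by breed. The EGR2 log2 fold change of 1.24 (SE 0.98, limma adjusted p = 0.781) was -0.0087 without Jintang 1. Of the EGR1 and EGR2 sum, EGR2 made up between 0.424% and 0.931% in Tibetan ovaries, 30.0% in Jintang 1, and 2.46% and 2.26% in Jintang 2 and 3. EGR4 was listed at 0 in 5 ovaries and at 3.44 FPKM in Jintang 1, and did not pass the filter. The co-repressors that bind EGR proteins stood at 106, 68.2 and 40.8 FPKM against 73.5, 38.9 and 64.3 FPKM for NAB2, and NAB1 stayed between 13.1 and 17.3 FPKM in all 6 ovaries.

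IER3 had the lowest unadjusted p of the set, hardly below that of EGR1 (limma unadjusted p = 0.0225 and 0.0228). It differed in the opposite direction to FOS and EGR1. It was at 26.7, 35.4 and 18.4 FPKM in the Tibetan goats and at 147, 90.2 and 32.0 FPKM in the Jintang goats. Jintang 1 and Jintang 2 stood above the other 4 ovaries, and Jintang 3 lay within the Tibetan range. The means were 26.8 ± 8.52 and 89.8 ± 57.6 FPKM (log2 fold change 1.51, SE 0.54, 95% interval from 0.27 to 2.74, limma adjusted p = 0.743, unadjusted p = 0.0225). IER2 varied least, at 51.4, 31.7 and 44.6 FPKM against 48.6, 36.2 and 31.8 FPKM. Its log2 fold change was -0.12 (SE 0.30, 95% interval from -0.80 to 0.55, limma adjusted p = 0.926), and the interval leaves room for a change of either sign.

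**Figure D1:**
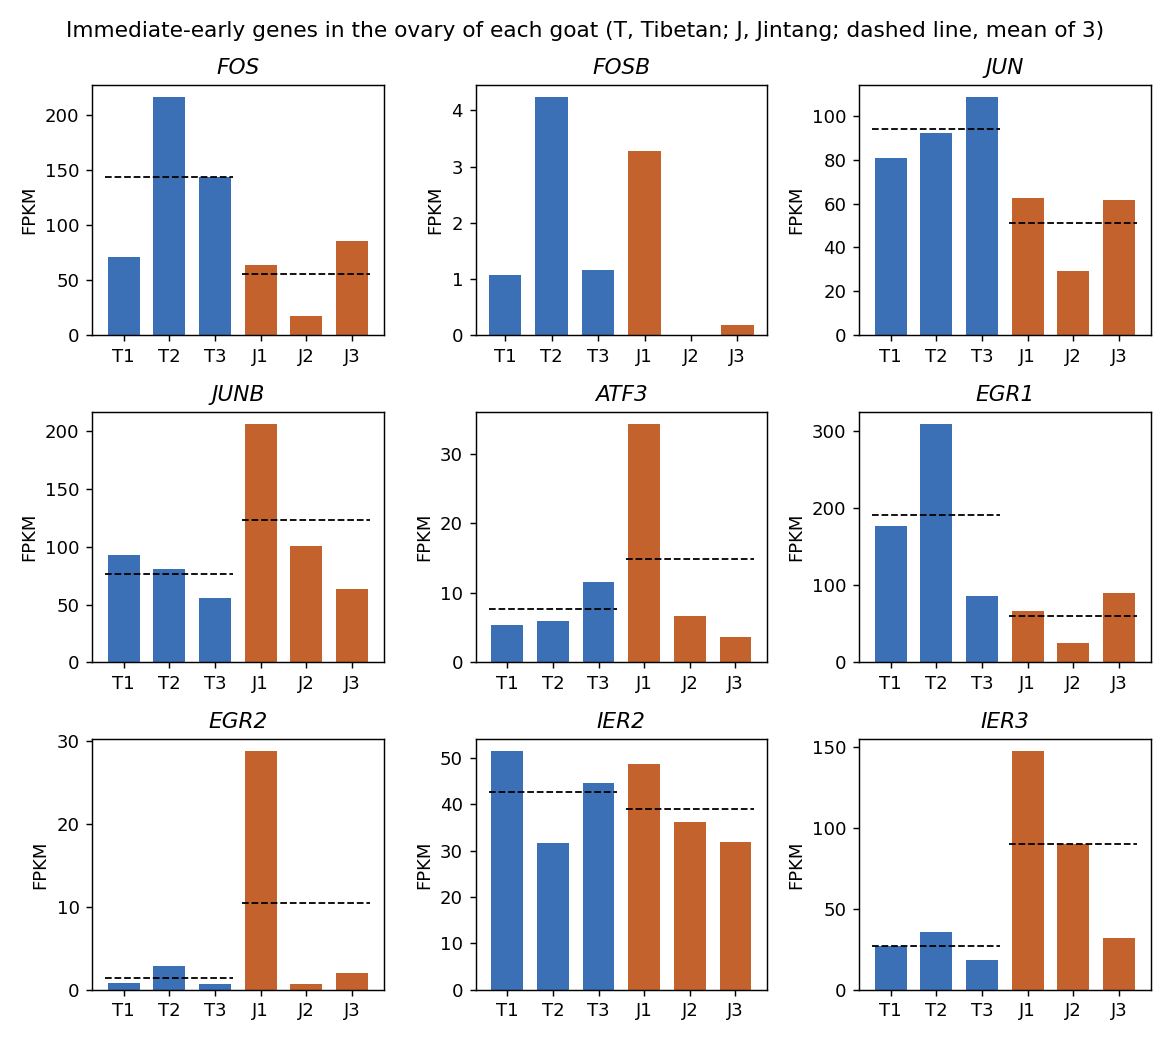
FPKM of 9 immediate-early genes (one panel each, linear axis from 0) in the ovaries of Tibetan goats 1 to 3 (T1 to T3, blue) and Jintang goats 1 to 3 (J1 to J3, orange), with dashed lines at the breed means and none for FOSB, which is listed at 0 in J2. In the JUN panel alone every Jintang bar is below every Tibetan bar, and in the JUNB, ATF3, EGR2 and IER3 panels the tallest bar is J1.

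**Figure D2:**
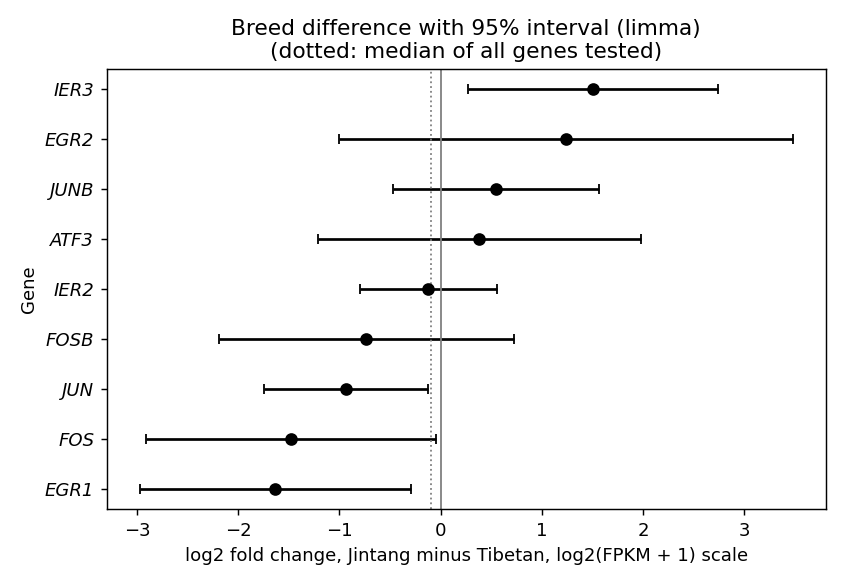
Log2 fold change (Jintang minus Tibetan, log2(FPKM + 1) scale) of each gene with its 95% interval from limma, sorted from the most negative, EGR1 (-1.63), to the most positive, IER3 (1.51). The solid line marks 0 and the dotted line the median of all genes tested (-0.10).

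As a set, the genes had no common direction. The log2 fold change was negative in 5 and positive in 4, with a median of -0.12, beside 7705 negative and 5362 positive genes and a median of -0.10 over all genes tested. Median-ratio scaling moved the median of all genes to 0.02. Under it the median of the set became 0.0026 and IER2 turned positive (0.0026). The set's median was also -0.47 without Jintang 1, -0.30 without Tibetan 2, -0.0772 without Tibetan 3, 0.0062 without Jintang 3 and 0.0235 without Tibetan 1. Spread between goats was wide. The range of a gene over the 6 ovaries had a median of 2.92 log2 units in the set and 1.15 over all genes tested, and 8 of 9 members lay above that median, the exception being IER2 (0.68). EGR1 and FOS differed 12.4-fold and 12.3-fold between their highest and lowest ovary.

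The order of mean levels was as follows. In Tibetan ovaries it ran EGR1 (190.4 FPKM), FOS (144), JUN (93.9), JUNB (76.5), IER2 (42.6), IER3 (26.8), ATF3 (7.69), FOSB and EGR2 (1.44). Neighbours in that order had overlapping ranges except JUNB over IER2, IER3 over ATF3 and ATF3 over FOSB. In Jintang ovaries JUNB (123 FPKM) came before IER3 (89.8), EGR1 (60.6), FOS (55.7), JUN (51.0), IER2 (38.9), ATF3 (14.9), EGR2 (10.5) and FOSB, and every neighbouring pair overlapped. That order rested on Jintang 1 and Jintang 2, where JUNB and IER3 came first. Jintang 3 ran EGR1, FOS, JUNB and JUN, and EGR1 or FOS came first in every Tibetan ovary. EGR1 ranked between the 78.5th and the 98.7th percentile of all genes of a library and FOS between the 71.8th and the 98.0th, both lowest in Jintang 2. JUNB stayed between the 90.1st and the 97.7th.

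Measured as deviations from each gene's own mean, the genes fell along different ovaries. Jintang 2 held the lowest value of 5 members (FOS, FOSB, JUN, EGR1 and EGR2) and the highest of none. For EGR2 (0.63 FPKM against 0.67 in Tibetan 3) and FOSB (0 against 0.19 in Jintang 3) this place rested on very low values. Jintang 1 held the highest value of 4 (JUNB, EGR2, ATF3 and IER3), and Tibetan 2 the highest of 3 (FOS, FOSB and EGR1). Over all genes tested, Jintang 1 held the highest value of 12.6%, Tibetan 2 of 18.4% and Jintang 2 of 20.5%, and Jintang 2 held the lowest of 25.7%. Likeness between profiles was measured as the root mean square difference of centred log2(FPKM + 1) values over the 6 ovaries. By this measure FOS was closest to JUN (0.594) and to EGR1 (0.609), and JUNB to IER2 (0.545) and IER3 (0.561). A profile with no differences between ovaries lay at 1.11 from FOS, 1.12 from EGR1, 0.599 from JUN, 0.601 from JUNB and 0.275 from IER2. JUN was therefore hardly nearer to FOS, and JUNB little nearer to IER2 or IER3, than to such a flat profile. The pairs farthest apart were FOS and IER3 (1.90) and EGR1 and IER3 (1.88).

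**Figure D3:**
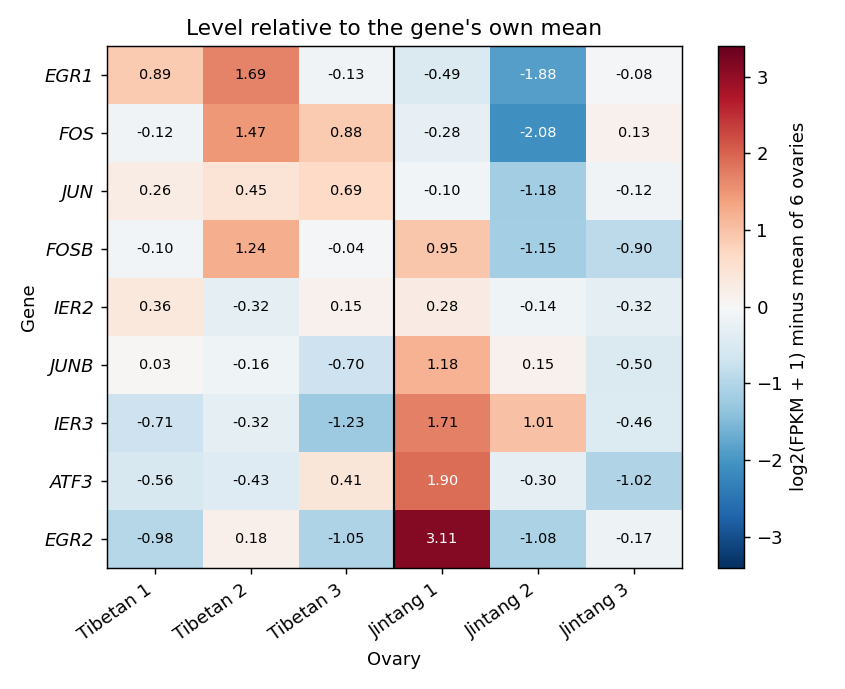
Deviation of log2(FPKM + 1) from each gene's mean over the 6 ovaries (columns; rows are genes; red above and blue below the mean). Jintang 2 is the lowest column for EGR1 (-1.88), FOS (-2.08) and JUN (-1.18), and Jintang 1 is the highest for JUNB (1.18), IER3 (1.71), ATF3 (1.90) and EGR2 (3.11).

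Ratios of genes within a library do not depend on how libraries are scaled, and these were chosen after the values were seen. The ratio of EGR1 to IER3 was 6.60, 8.72 and 4.71 in Tibetan 1, 2 and 3 and 0.457, 0.277 and 2.80 in Jintang 1, 2 and 3. The ratio of JUN to IER3 was 3.02, 2.61 and 5.91 against 0.424, 0.323 and 1.93, and that of EGR1 to JUNB 1.90, 3.81 and 1.56 against 0.326, 0.249 and 1.41. In these 3 ratios each Jintang ovary lay below each Tibetan ovary, with Jintang 3 nearest to the Tibetan values and no test made. Each sets a gene with a lower Jintang mean over a gene with a higher one. No share of separated ratios over other pairs of genes is given. For FOS over IER3 the breeds touched, at 2.67 in Tibetan 1 and in Jintang 3. The ratio of JUN to JUNB overlapped (0.870, 1.14 and 1.96 against 0.303, 0.290 and 0.966). The ratios of FOS to JUNB, to JUN and to FOSL2 and of EGR1 to FOS, also computed, overlapped too.

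**Figure D4:**
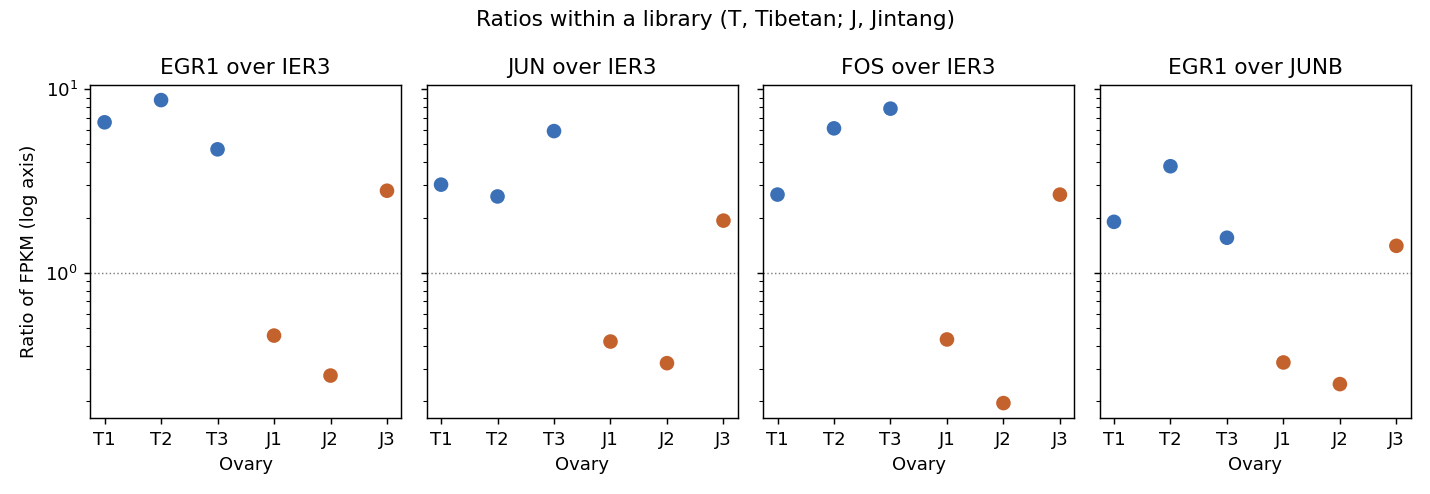
Ratios of FPKM within each ovary (log axis; dotted line at 1) for EGR1 over IER3, JUN over IER3, FOS over IER3 and EGR1 over JUNB, with Tibetan ovaries in blue and Jintang ovaries in orange. J1 and J2 lie below 1 in all 4 panels, and J3 lies above 1 in all 4, below or level with the lowest Tibetan ovary.

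The makeup of the FOS family differed between ovaries more than its total did. FOS, FOSB, FOSL1 and FOSL2 summed to 219, 298 and 224 FPKM in the Tibetan goats and to 287, 215 and 182 FPKM in the Jintang goats. FOS made up 32.5%, 72.6% and 64.4% of that sum in the Tibetan and 22.3%, 8.20% and 46.8% in the Jintang ovaries. FOSL2, a later-induced relative without the strong activation domain of FOS, made up 63.5%, 24.0% and 32.7% against 70.9%, 85.2% and 49.6%. Of the JUN and JUNB sum, JUNB held 53.5%, 46.8% and 33.8% in Tibetan and 76.8%, 77.5% and 50.9% in Jintang ovaries. JUND was not analysed here.

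Among the other AP-1 and small MAF factors, 0 of 11 tested genes passed, 8 were positive and the median was 0.18. It was 0.48 without Tibetan 2, 0.39 without Tibetan 1, 0.38 without Jintang 2, 0.12 without Jintang 1 and 0.0345 with the filter at 5 FPKM. FOSL2 measured 139, 71.7 and 73.0 FPKM against 204, 184 and 90.4 FPKM (limma adjusted p = 0.743). FOSL1, another FOS relative, measured 7.71, 5.84 and 5.50 FPKM against 16.3, 14.2 and 6.34 FPKM. BATF3, a factor of dendritic cells, reached 15.1 and 47.3 FPKM in Jintang 1 and 2 and stood between 2.14 and 3.71 FPKM elsewhere. BATF measured 0.81, 2.04 and 0.68 FPKM against 7.02, 2.06 and 2.09 FPKM, the 1 gene of this list without overlap, by a margin of 2.04 to 2.06 FPKM.

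Other immediate-early transcription regulators had 0 of 16 tested genes past the test, 10 negative and a median of -0.26. The median was -0.0261 without Jintang 2, -0.13 without Tibetan 2, -0.14 without Tibetan 1 and -0.43 without Jintang 1. PER1, a clock gene that CREB also induces, was at 60.7, 32.5 and 41.8 FPKM in the Tibetan goats and 14.7, 14.7 and 21.0 FPKM in the Jintang goats (log2 fold change -1.34, SE 0.31, limma adjusted p = 0.743). CREM, a CREB relative, measured 9.38, 11.9 and 34.3 FPKM against 37.2, 43.2 and 15.8 FPKM, with Jintang 3 inside the Tibetan range. KLF10 measured 44.1, 42.5 and 19.5 FPKM against 25.4, 25.5 and 21.0 FPKM. MAFF measured 1.49, 1.96 and 2.1 FPKM against 7.74, 3.90 and 1.08 FPKM.

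Products of immediate-early genes that act outside transcription gave 0 of 23 past the test, 14 positive, and a median of 0.31, with 3 higher and 3 lower at an unadjusted p under 0.05 (2.82% and 3.35% of all genes tested). The median was -0.12 without Jintang 1, 0.15 without Tibetan 3, 0.18 without Tibetan 1 and 0.51 without Jintang 3. The kinase SGK1 was at 4.36, 10.3 and 8.84 FPKM in the Tibetan goats and 66.0, 36.0 and 11.8 FPKM in the Jintang goats without overlap (log2 fold change 1.91, SE 0.59, limma adjusted p = 0.743). In the other direction, the growth-arrest gene GADD45G measured 46.1, 26.3 and 21.3 FPKM against 5.13, 4.05 and 27.2 FPKM. The matricellular gene CYR61 (now CCN1) measured 60.0, 73.2 and 142 FPKM against 60.7, 24.4 and 41.9 FPKM, and the antiproliferative gene BTG2 at 23.7, 64.3 and 34.6 FPKM against 15.8, 13.5 and 27.0 FPKM. CYR61, BTG2, GADD45G, FOS and JUN shared their lowest ovary, Jintang 2. That ovary held the lowest value of 37.3% of the 51 other immediate-early genes tested and of 25.7% of all genes tested.

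Jintang 1 stood out among these genes as it did for EGR2. It held the highest value of 22 of the 51 other immediate-early genes tested in these 4 lists (43.1%), where it held that of 12.6% of all genes tested. At least 3 times the next ovary was reached there by 5 of the 51 (BATF, CTGF, GADD45A, THBS1 and TRIB1), beside 1.19% of all genes tested. GADD45A was at 622 FPKM in Jintang 1 against at most 120 FPKM elsewhere, and CTGF at 443 and at most 114 FPKM. ARC, which did not pass the filter, was at 35.6 FPKM in Jintang 1 against at most 1.14 FPKM elsewhere. These genes are named after their values were seen.

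Upstream of the set, 0 of 25 tested factors and kinases passed, 16 were negative, and the median of -0.11 was close to that of all genes. It was -0.0667 without Jintang 1, -0.0688 without Tibetan 3, and 0.0148 with median-ratio scaling. SRF, the factor bound at the promoters of FOS and EGR1 and named outside the rule after its values were seen, measured 50.7, 25.3 and 50.7 FPKM against 24.6, 22.4 and 32.9 FPKM. CRTC2, a CREB coactivator, measured 52.4, 31.8 and 35.7 FPKM against 28.5, 18.6 and 27.1 FPKM without overlap (limma adjusted p = 0.743). The kinase gene BRAF measured 8.22, 7.35 and 5.12 FPKM against 3.19, 2.98 and 5.73 FPKM, RPS6KA1 at 5.42, 9.14 and 12.1 FPKM against 18.5, 14.1 and 11.7 FPKM, and ELK3 at 23.3, 30.5 and 24.2 FPKM against 40.8, 39.1 and 30.2 FPKM. Of the phosphatases and Sprouty proteins that switch the kinases off, 0 of 13 passed and 9 were positive (median 0.20). Their median was 0.0834 without Tibetan 1, 0.11 without Tibetan 2, 0.12 without Jintang 1, 0.31 without Jintang 3, 0.39 without Tibetan 3 and 0.0351 with the filter at 5 FPKM. SPRY2 measured 12.4, 13.2 and 21.5 FPKM against 42.5, 29.1 and 22.0 FPKM without overlap (log2 fold change 0.94, SE 0.34, limma adjusted p = 0.743). DUSP6, which removes phosphate from ERK, measured 12.3, 20.8 and 14.8 FPKM against 40.1, 17.0 and 19.5 FPKM. DUSP5, named after its values were seen, was at 108 FPKM in Jintang 1 against at most 5.95 FPKM in the other 5 ovaries. DUSP1, itself an immediate-early gene and likewise named after its values were seen, ran from 39.6 to 89.4 FPKM with overlap.

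The labels do not record handling of the tissue, and inducible heat-shock genes are given beside the set for that reason. None of 14 tested passed, 12 were negative (median -0.50), and 4 lay lower in every Jintang ovary, beside 6.70% of all genes tested. HSPA6 was at 16.6, 13.1 and 15.4 FPKM in the Tibetan goats and 2.90, 1.72 and 3.44 FPKM in the Jintang goats, and HSP70.1 at 587, 294 and 1013 FPKM against 105, 171 and 160 FPKM. DNAJB1 measured 84.3, 78.7 and 113 FPKM against 39.5, 45.7 and 31.3 FPKM. Of the 14, 10 were highest in Tibetan 3, HSP70.1 and DNAJB1 among them, and both had their lowest Tibetan value in Tibetan 2. JUN was highest in Tibetan 3 as well, and ATF3 had its highest Tibetan value there, whereas FOS, FOSB and EGR1 were highest in Tibetan 2. The median of the heat-shock list was -0.31 without Tibetan 3. HSP70 copies can share reads, so their single levels are uncertain. The part of handling in the levels of FOS, JUN and EGR1 was not tested.

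Genes of the LH surge and ovulation, a stimulus that induces the set in follicles, had 0 of 16 tested past the test, with 11 positive (median 0.49). That median was 0.86 without Jintang 3, 0.34 without Jintang 1, 0.29 with no filter and 0.31 with the filter at 5 FPKM. Of the 20 genes with a row, AREG, EREG, BTC and HAS2 failed the filter, so the median of 0.49 leaves them out. EREG measured 0, 0 and 0.15 FPKM against 0.48, 15.05 and 0.05 FPKM. AREG peaked at 0.89 and BTC at 1.44 FPKM, both in Jintang 2, and HAS2 at 0.16 FPKM in Jintang 1. The tested gene LOC102173131 is in the luteal list too. All of these are named after their values were seen. RUNX2 measured 6.33, 6.80 and 6.17 FPKM against 17.7, 21.3 and 13.8 FPKM, and PLAU at 2.19, 7.33 and 4.14 FPKM against 51.0, 26.6 and 8.0 FPKM. PTX3 measured 0.84, 3.26 and 2.09 FPKM against 4.56, 26.0 and 7.68 FPKM, and SNAP25 at 60.7, 33.3 and 20.0 FPKM against 11.7, 7.02 and 19.7 FPKM. These 4 genes showed no overlap between the breeds, SNAP25 by the margin of 20.0 to 19.7 FPKM (limma adjusted p = 0.743 for each). PTGS2, the prostaglandin synthase of ovulation, and PGR, the progesterone receptor, were also without overlap and are named after their values were seen. PTGS2 measured 1.71, 2.43 and 1.85 FPKM against 0.53, 0.54 and 1.25 FPKM, and PGR 11.01, 12.43 and 9.90 FPKM against 2.25, 8.99 and 4.68 FPKM. The separated genes of the list were thus 3 higher and 3 lower in Jintang ovaries, beside 3.20% and 6.70% of all genes tested. At an unadjusted limma p under 0.05 there were 4 higher and 3 lower, beside 2.82% and 3.35%.

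**Figure D5:**
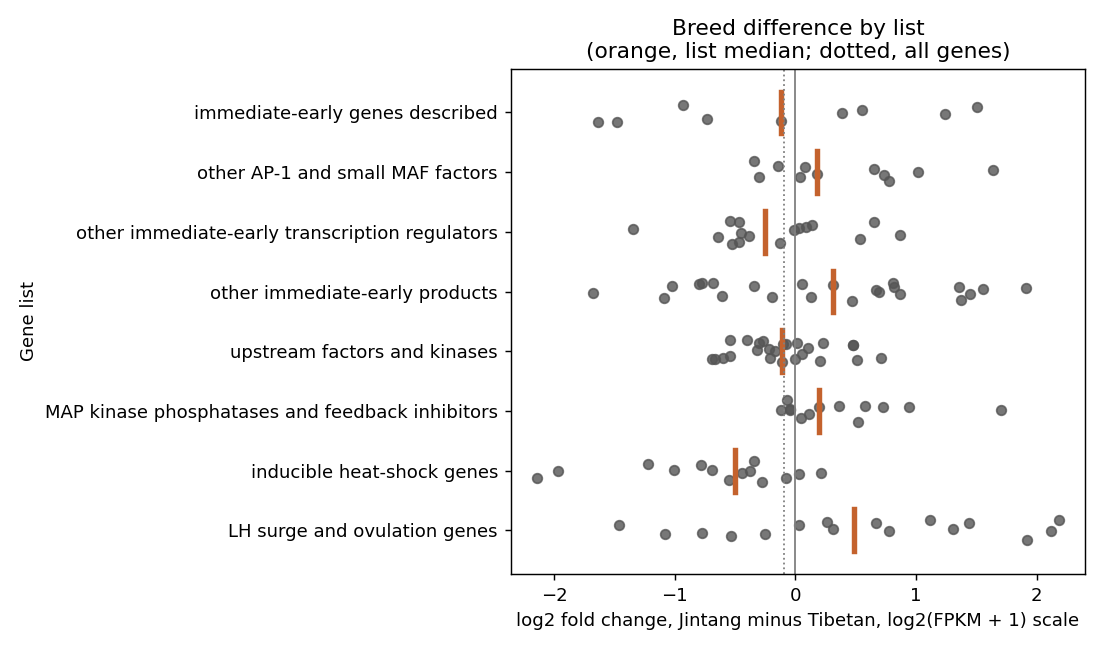
Log2 fold change (Jintang minus Tibetan, log2(FPKM + 1) scale) of every tested gene in 8 lists, one point per gene, with orange bars at list medians and a dotted line at the median of all genes tested (-0.10). Points of the 9 immediate-early genes lie on either side of 0 from -1.63 to 1.51, and 12 of the 14 heat-shock points lie below 0.

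Markers of other cell types differed between ovaries, and some lists leaned to 1 breed. The log2 fold change was positive in 11 of 11 macrophage, 8 of 8 fibroblast and 7 of 7 luteal markers tested. Over all genes tested 41.0% were positive, and none of these markers passed the limma test. Smooth muscle and pericyte markers were negative in 6 of 8. Macrophage and myeloid markers (11 of 12 with a row, none at 0 in all ovaries) summed to 111, 329 and 220 FPKM in the Tibetan goats and to 1802, 204 and 434 FPKM in the Jintang goats, with all 11 highest in Jintang 1, the ovary with the highest EGR2, ATF3, JUNB and IER3. Fibroblast and stroma markers (8 of 8 with a row, none at 0 in all ovaries) summed to 3721, 3887 and 2180 FPKM against 11100, 5955 and 3667 FPKM. Luteal markers (7 of 8 with a row, none at 0 in all ovaries) summed to 360, 553 and 2569 FPKM against 6405, 19730 and 506 FPKM, with the highest sum in Jintang 2, where FOS, JUN and EGR1 were lowest. TIMP1 alone gave 5304 FPKM of that sum in Jintang 1 and 9215 FPKM in Jintang 2. Of the 7 genes, 4 were highest in Jintang 2, whereas PRLR and PTGFR were highest in Jintang 1 and LHCGR in Tibetan 3. Smooth muscle and pericyte markers (8 of 8 with a row, none at 0 in all ovaries) were lowest in sum in Jintang 2 too, at 2057 FPKM against 3787 to 7864 FPKM in the other 5. The remaining lists were given by their summed FPKM. Endothelial markers (9 of 10 with a row) ran from 195 to 313 in Tibetan and from 221 to 430 in Jintang ovaries, and theca markers (4 of 6) from 32.8 to 915 and from 150 to 3166. Single genes carried the theca sums: STAR, which is in the luteal list too, made up 3130 FPKM of the sum in Jintang 2, while LOC102182663 measured 16.3, 152 and 719 FPKM in Tibetan against 1.99, 4.24 and 103 FPKM in Jintang ovaries. Lymphocyte markers (11 of 11) ran from 27.6 to 92.4 and from 39.9 to 113, and markers of surface and simple epithelium (6 of 8) from 19.7 to 134 and from 14.4 to 254. In the epithelial list KRT18 alone reached 243 FPKM in Jintang 2, whereas KRT7 (6.96, 4.51 and 10.7 against 0.80, 1.63 and 1.91 FPKM) and EPCAM were lower in every Jintang ovary. Oocyte markers (9 of 10) ran from 0.91 to 22.1 and from 4.34 to 24.1, and the erythrocyte markers with a row (3 of 6) summed to at most 0.72 in any ovary. The part of these cell types in the levels of the immediate-early genes was not tested.

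Among 12611 other genes with a symbol and a mean of at least 1 FPKM, those nearest in profile over the 6 ovaries were named by a fixed rule. Closest to JUN were C18H16orf74 (root mean square difference 0.0944), NOV (0.136), a matricellular gene of the same family as CYR61, and SERINC4 (0.198). NOV was at 8.86, 12.1 and 13.7 FPKM in the Tibetan goats and 9.38, 3.27 and 8.40 FPKM in the Jintang goats. For EGR1 they were TTR (0.295), which encodes transthyretin, TMEM35A (0.310) and GATM (0.333), which encodes an enzyme of creatine synthesis. GATM measured 81.4, 83.1 and 26.0 FPKM against 22.5, 11.3 and 43.4 FPKM. FOS had no neighbour as close, its nearest being FAM63A (0.458), LOC102190867 (0.476) and MAL (0.502). The mean profile of the 9 genes was nearest to SLC18A2 (0.151), DLL1 (0.176), LAPTM4A (0.186), ARHGAP31 (0.194), DOCK4 (0.203), CX3CL1 (0.213), WASL (0.217), GYPC (0.222), STARD3NL (0.229) and STK38L (0.229), whereas its distance to the members themselves ran from 0.43 (FOSB) to 1.05 (EGR2). A flat profile lay at 0.538 from the mean profile, and 6 of the 9 members lay farther than that from the mean profile. Every member except IER2 (0.518 against 0.275) was still nearer to the mean profile than to a flat one. The margin was widest for FOSB (0.43 against 0.873) and EGR2 (1.05 against 1.47). It was small for JUN (0.588 against 0.599) and IER3 (0.987 against 1.02). With so many candidates and 6 ovaries, near profiles are a description only.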

How the data were processed

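Per the labels' protocols, RNA was isolated with TRIzol from each ovary and NEBNext libraries were made. The authors deposited 1 table of FPKM values per goat. The submitters' processing notes list TopHat2 2.0.10, TopHat, Bowtie2 2.1.0 and RSEM 1.2.0 without roles. For build, annotation and strand the sources used here give nothing, and coordinates are left out. A table of the whole series with the same 6 columns was not used. GeneIDs were matched to RefSeq symbols of assembly ARS1.2 (16457 by GeneID, 9 by accession, 1038 without), and 4 list entries through older symbols (CYR61, CTGF, MKL1, MKL2).

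Values were compared as log2(FPKM + 1) with limma 3.58.1 in R 4.3.3 (lmFit, eBayes with trend), with breed as the only term, 2-sided, Benjamini-Hochberg adjustment over 13067 genes and a threshold of 0.05. FPKM corrects for length and library total only, so a few abundant genes can lower the others. Each library is 1 goat. The procedure was tested on simulated data with 3 and 3 libraries, where the changed genes were drawn from the higher-expressed ones. It recovered 4 of 50 genes changed by 1 log2 unit, 30 of 50 changed by 2 and 40 of 50 changed by 3. Changes of the size seen in the set could therefore be missed. Relative depth came from the mode of ratios of low values between libraries. Figures used matplotlib 3.10.9 in Python 3.11.15.

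The genes, lists and tests were chosen with earlier results of these data known. Named genes are the members, the up to 4 genes of each list with the smallest p, all of a list of 3 or fewer, the 10 genes nearest to the mean profile of the members, the 3 nearest to FOS, JUN and EGR1 each, and others said to be named after their values were seen. Marker lists covered granulosa, theca, luteal, oocyte, endothelial, smooth muscle, fibroblast, macrophage, lymphocyte, erythrocyte and epithelial cells. The alternatives changed the scaling (median-ratio, quantile or TPM), the pseudocount (0.1 or 0.01), the filter (none, or 5 FPKM in 3 libraries) or the fit: no trend, robust variances, array weights, the replicate number as a block, and each library left out.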

Additional observations from a re-analysis of the deposited data

How the results depend on the processing

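No member passed the adjusted threshold under any of the 17 alternatives. Over all genes the count of calls was 0 throughout, except that leaving out single libraries gave 0 to 13 (13, all higher, without Jintang 3, of which none was a member). The number of members at an unadjusted p under 0.05 was 4 in the fit reported, 3 with no filter, with median-ratio scaling, with quantile normalization and with array weights, and 1 to 4 with a library left out (1 without Tibetan 2 or Tibetan 3, 2 without Jintang 2). Over all genes it was 806 in the fit reported, 1227 with array weights, and 336 to 1874 with a library left out (336 without Tibetan 1, 352 without Jintang 1, 535 without Jintang 2, 1874 without Jintang 3). FOS, JUN, EGR1 and IER3 kept their direction under all 17, with left-out libraries giving -1.92 to -0.81 for FOS, -1.12 to -0.58 for JUN, -2.11 to -1.10 for EGR1 and 1.03 to 2.11 for IER3. JUNB kept its direction too (0.10 to 0.94), as did FOSB (-1.39 to -0.30) under the 16 that kept it. FOSB is listed at 0 in 1 library, so its fold change follows the pseudocount (-0.73 with 1, -3.22 with 0.01). The other members did not: EGR2 (-0.0087 to 2.09) and ATF3 (-0.47 to 0.99) turned without Jintang 1, and IER2 (-0.32 to 0.0235) turned without Tibetan 1 or Jintang 3 and, at 0.0026, with median-ratio scaling. The co-repressor NAB1 turned with median-ratio scaling (0.0617), with quantile normalization (0.0274) and without Tibetan 2 (-0.14 to 0.0490 with a library left out), and NAB2 without Tibetan 1 or Jintang 2 (-0.57 to 0.107). The median of the members ran from -0.47 to 0.0235 with a library left out. The replicate numbers name different goats, and same-numbered libraries did not deviate together (correlation across genes -0.0179, -0.211 and -0.470 for numbers 1, 2 and 3). With the number as a replicate block, 0 genes passed and 3 members had an unadjusted p under 0.05. FPKM tables give no counts, so counting error at low values such as those of FOSB and EGR2 could not be set.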
